A study of Mus musculus with 3 samples.

Results

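FOXA2 sites that lie far from any HNF4A site were examined in hepatoblasts of the mouse embryonic liver. A site was included when the centre of its FOXA2 peak was more than 100 kb from every HNF4A peak centre and the peak lay more than 10 kb from any region called in input chromatin. These conditions held for 1773 of 9338 FOXA2 peaks, 18.99% of the list (95% Wilson interval 18.2 to 19.8%). A further 358 FOXA2 peaks were as far from HNF4A but lay within 10 kb of an input region and were left aside. The members were chosen by measured values, the positions of the peaks in the 3 lists, so their distance from HNF4A is a description and not a finding. Their scores and widths were not used in the choice. Spacing is not independent of it, since the rule limits which FOXA2 peaks can lie near a member. Leaving out peaks beside input also bears on widths and spacing, and values without that condition are given below.

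The study mapped factor binding by chromatin immunoprecipitation and sequencing (ChIP-seq) in wild-type C57BL/6 mice at embryonic day 14.5. There were 3 libraries, 1 with an antibody to FOXA2, 1 with an antibody to HNF4A and 1 of input chromatin with no antibody. The cells of all 3 came from pooled livers and had been enriched for the surface protein DLK1 by magnetic sorting, so several embryos are mixed in each library and cells other than hepatoblasts may remain. With 1 library per group there is no replicate check, no test was made between groups of peaks, and every interval below covers counting error only.

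FOXA2 is a forkhead transcription factor known for binding its sites in compacted chromatin, and together with FOXA1 it is needed for the liver to form from the foregut endoderm. HNF4A is a nuclear receptor that maintains the hepatocyte programme, and many liver enhancers carry sites for both factors. FOXA2 is also active in other endodermal tissues, such as lung, pancreas and gut, and in the floor plate of the neural tube. No genome sequence or annotation of the mm9 build was used here. Sites are therefore given by mm9 position alone, and the labelled cell type was not checked against marker genes.

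The remote sites scored lower than the other FOXA2 sites. The authors' score, a whole-number value of each peak without a stated definition, had a median of 14 at remote sites (interquartile range 12 to 18). It was 15 (12 to 20) at the 4206 FOXA2 peaks that lay within 100 kb of an HNF4A centre without touching an HNF4A peak. At the 2849 FOXA2 peaks that overlapped an HNF4A peak it was 19 (14 to 30). All peaks compared here lay more than 10 kb from input unless stated otherwise. The remote group stood 1 unit below its nearest comparison and 5 units below the overlapping peaks, while the interquartile ranges overlapped. The lowest score of the list, 11, was held by 22.7% of remote sites (20.8 to 24.7%), by 16.6% of the nearby peaks (15.5 to 17.8%) and by 10.2% of the overlapping peaks (9.19 to 11.4%). Scores above the 90th percentile of the whole list, which is 34, were found at 83 remote sites or 4.68% (3.79 to 5.77%), at 6.28% of nearby peaks (5.58 to 7.05%) and at 18.8% of overlapping peaks (17.4 to 20.3%).

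Seen from the score, the remote share of FOXA2 peaks was smaller at higher scores. Remote sites made up 28.9% of peaks with a score of 11 (403 of 1395; 26.6 to 31.3%) and 27.0% of those with a score of 12 (24.5 to 29.7%). They made up 17.7% of peaks with scores of 18 to 22 (15.8 to 19.9%) and 6.69% of those with scores of 51 to 165 (21 of 314; 4.42 to 10.0%). Between scores of 23 and 50 the share was level, at 11.3% for 23 to 30 (9.47 to 13.4%) and 11.5% for 31 to 50 (9.54 to 13.8%). Without wide peaks, those over the median width of an input region, 612 bp, the remote share was 25.7% at a score of 11 and 6.71% at 51 to 165.

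**Figure D1:**
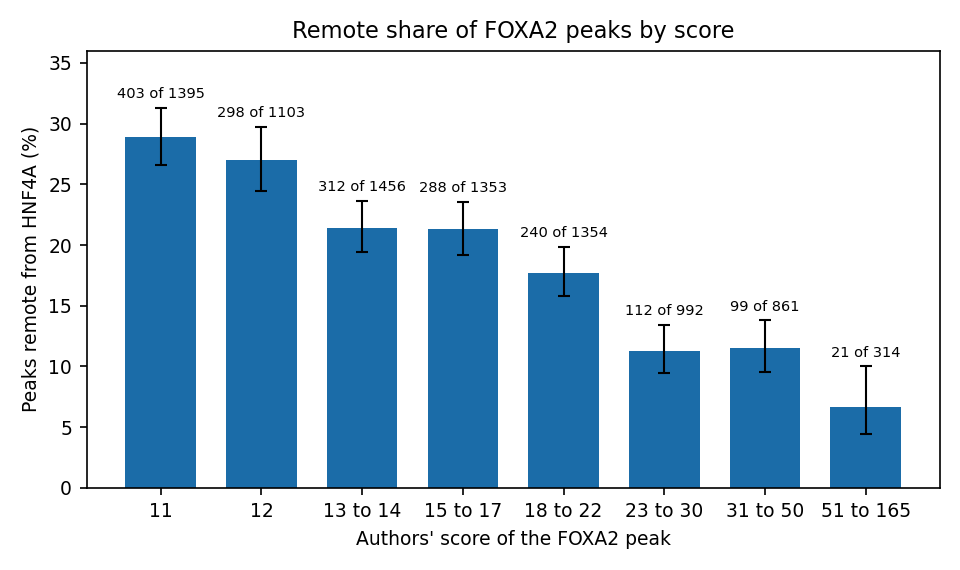
Share of FOXA2 peaks that were remote from HNF4A (percent, vertical axis) in 8 ranges of the authors' score (horizontal axis), among peaks more than 10 kb from input; whiskers are 95% Wilson intervals and the numbers above are remote peaks of all peaks. The share was 28.9% at the lowest score and 6.69% in the highest range.

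A few remote sites nevertheless stood among the leading peaks of the list. Of the 100 highest ranks of the FOXA2 list, counted with ties, 8 members were found, whereas members made up 18.99% of the whole list. The highest was chr1:80424491-80424849, with a score of 114 and a width of 359 bp. It ranked 6 among all FOXA2 peaks, its nearest HNF4A centre was 577.57 kb away, and the next FOXA2 peak, also remote, was 58.4 kb away. The second, chr10:86307964-86308544, had a score of 96 and lay just past the distance limit, at 102.22 kb from HNF4A. These sites differ in setting: the first stood deep in sequence without HNF4A and the second at its margin.

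The third, chr9:59515750-59516111, had a score of 84 and was 210.16 kb from HNF4A. The fourth, chr4:25381838-25382181, had a score of 83 and was the farthest from HNF4A of the 10 leading sites. Its nearest HNF4A centre was 2956 kb away and its nearest FOXA2 neighbour 342.44 kb away. A site on chromosome 10 and another on chromosome 16 followed, both with a score of 77. The site on chromosome 10, chr10:97967137-97967499, had no FOXA2 neighbour within 457.5 kb, whereas chr16:93591599-93591983 had another remote site 15.9 kb away.

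The remaining leading sites had scores of 59 to 67. They were chr1:43362126-43362473 with a score of 67, chr17:76276215-76276568 with 66, chr7:13857073-13857388 with 61 and chr9:75084660-75085025 with 59. Their distances to HNF4A ran from 101.35 to 253.8 kb. Of these 10 sites, 9 were 316 to 385 bp wide, and the second was 581 bp wide. All 10 lay at least 1260.8 kb from any input region.

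Remote sites of high score were narrow and well spread. A score of 30 or more was held by 128 members, which lay on 20 chromosomes, with 12 on chromosome 3, 11 on chromosome 9 and 1 on chromosome 19. Their median width was 352.5 bp (interquartile range 327.75 to 374 bp), against 348 bp (327 to 368 bp) for the 414 nearby peaks of the same scores and 356 bp (337 to 379 bp) for the 719 overlapping peaks. The widths of strong sites in these 3 classes thus overlapped widely. As for neighbours, 57.8% of the strong remote sites (49.2 to 66.0%) had no other FOXA2 peak within 100 kb, against 19.1% of strong nearby peaks (15.6 to 23.1%) and 18.8% of strong overlapping peaks (16.1 to 21.8%). The choice of members sets much of this difference, since FOXA2 peaks that overlap HNF4A could hardly lie within 100 kb of a remote site. Of the 128, 2 lay within 100 kb of an input region and 126 lay farther away. So did 407 of the 414 strong nearby peaks and 712 of the 719 strong overlapping peaks. Distance from input was thus shared by strong peaks of all 3 classes.

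Over all scores, 919 members, 51.8% (49.5 to 54.2%), were isolated in this sense, with neither an HNF4A nor another FOXA2 centre within 100 kb. The isolated members had a median score of 14, a median width of 361 bp and a highest score of 83. The other 854 members had a median score of 13. Of the isolated members 48, or 5.22% (3.96 to 6.86%), scored above the 90th percentile of the list, against 4.10% of the others (2.96 to 5.65%). The intervals of these shares overlapped.

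The density of FOXA2 peaks was lower at greater distance from HNF4A, also within the remote range. Distance from HNF4A chose the members, so these densities describe where the sites lie and support no comparison of their properties. Sequence more than 100 kb from every HNF4A centre amounted to 1622 Mb, 63.3% of the 2560.9 Mb between the first and last regions of each chromosome, leaving out sequence within 10 kb of input. It held 1773 FOXA2 peaks, or 1.09 per Mb (exact Poisson interval 1.04 to 1.15), whereas sequence within 100 kb held 7.51 per Mb (7.34 to 7.69). Inside the remote range there were 2.09 peaks per Mb at 100 to 200 kb (1.94 to 2.24), 1.26 at 200 to 500 kb (1.17 to 1.36), 0.569 at 500 to 1000 kb (0.492 to 0.654) and 0.393 beyond 1000 kb (0.333 to 0.460). On X the density was not lower at each step, with 0.752 per Mb at 100 to 200 kb (0.344 to 1.43) and 0.764 at 200 to 500 kb (0.473 to 1.17). The length of sequence in which no peak could be called, such as assembly gaps and repeats, was not known in any range, and its part in these densities was not tested.

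Strong sites were likewise sparser farther out. FOXA2 peaks with a score of 30 or more numbered 1.21 per Mb within 100 kb of HNF4A (1.14 to 1.28), 0.186 at 100 to 200 kb (0.144 to 0.235), 0.0741 at 200 to 500 kb (0.0525 to 0.102), 0.0431 at 500 to 1000 kb (0.0241 to 0.0711) and 0.0154 beyond 1000 kb (0.00565 to 0.0335). The last of these rests on 6 peaks, and beyond 200 kb neighbouring intervals overlapped. The typical score of a member, in contrast, hardly moved with distance. Its median was 14 among the 776 members at 100 to 200 kb, 13 among the 646 at 200 to 500 kb, 14 among the 198 at 500 to 1000 kb and 13 among the 153 beyond 1000 kb. The median thus stayed within 1 unit, close to the lowest score of the list, 11. The upper quartile was 19 at 100 to 200 kb, 18 at 200 to 500 kb and at 500 to 1000 kb, and 16 beyond 1000 kb.

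**Figure D2:**
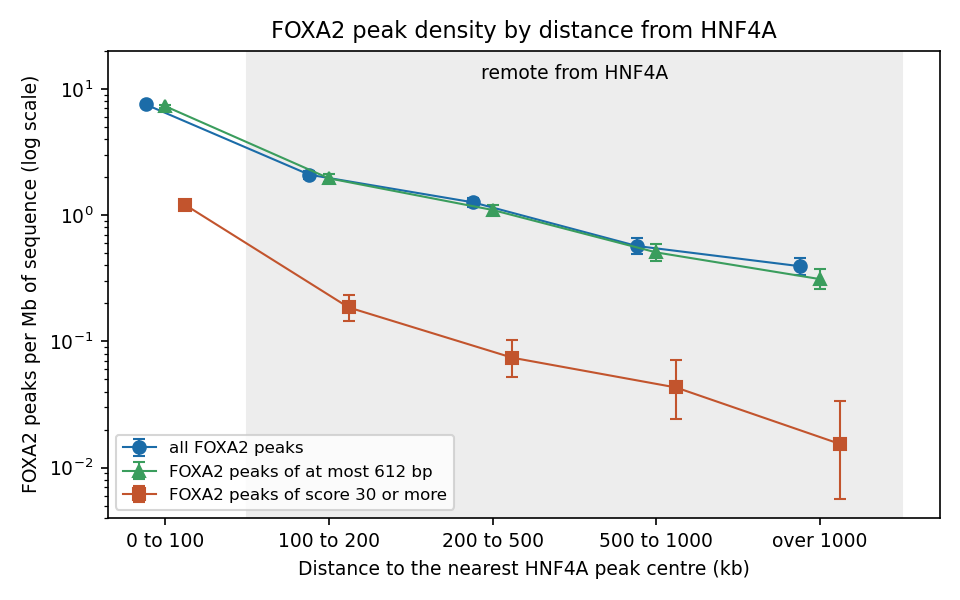
FOXA2 peaks per Mb of sequence (vertical axis, log scale) by distance to the nearest HNF4A peak centre in kb (horizontal axis), for all FOXA2 peaks, for peaks of at most 612 bp and for peaks with a score of 30 or more, all more than 10 kb from input; whiskers are exact 95% Poisson intervals. All FOXA2 peaks numbered 7.51 per Mb within 100 kb of HNF4A and 0.393 per Mb beyond 1000 kb.

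The distance of a member to its nearest HNF4A centre had a median of 221.76 kb (interquartile range 143.27 to 413.38 kb). The site farthest from HNF4A was chr14:89463816-89464133, 10211.2 kb from the nearest HNF4A centre, with a score of 14 and a width of 318 bp. The next farthest were a pair on the same chromosome, chr14:87793611-87794025 with a score of 12 and chr14:87726900-87727212 with a score of 17, 8541.1 and 8474.3 kb from HNF4A and 66.8 kb apart. All 3 were narrow and at least 17946.6 kb from input. At the other limit, the member nearest to HNF4A, chr7:28478184-28478641, was 100.05 kb away and had a score of 12, while the FOXA2 peak just inside the limit and so not a member, chr7:134716028-134716379, was 99.7 kb away and also had a score of 12. Members at 100 to 110 kb, 107 in number, scored 13 at the median (quartiles 12 and 18), and the 133 unshared FOXA2 peaks at 90 to 100 kb had a median of 14 (12 to 20). At the limit set on input, chrX:144352212-144352593 was a member at 10.1 kb from input with a score of 11, and chr4:145834074-145834448 was not, at 9.89 kb with a score of 12.

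Seen as gaps, the HNF4A list left 2511 intervals of more than 200 kb between consecutive centres, in which a remote site was possible. Of these 928, or 37.0% (35.1 to 38.9%), held at least 1 remote FOXA2 site, and 543 held exactly 1. Gaps of 200 to 500 kb held 0.283 members on average, those of 500 to 1000 kb 0.825, those of 1000 to 2000 kb 1.31 and longer ones 1.95. A longer gap has more sequence past the 100 kb limit at both ends, so a higher number per gap follows from its length and says nothing of density. A further 52 members lay outside the outermost HNF4A centres of a chromosome. The longest gap without a FOXA2 member on an autosome ran from 46180579 to 52593507 on chromosome 12, a stretch of 6.41 Mb.

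The 3 gaps with the most members were of another kind. They lay on chromosome 7 between HNF4A centres at 20538099 and 24897269 (19 members), on chromosome 14 between 42016950 and 44371671 (19 members) and on chromosome 5 between 93559213 and 96367527 (17 members). In each of them the median score was 12, and the highest scores were 22, 16 and 20. Wide peaks numbered 8, 9 and 10 in these gaps, and a further 8, 4 and 75 FOXA2 peaks there lay within 10 kb of input. The most populated gaps were therefore filled with low-scoring peaks. None of the 10 highest members lay in them, but with 19, 19 and 17 of the 1773 members there, few of any 10 would. That absence therefore says nothing particular about these gaps.

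Widths separated a minority of the members from the rest. The median width was 370 bp at remote sites (interquartile range 329 to 446 bp), against 359 bp (325 to 406 bp) at nearby and 367 bp (337 to 416 bp) at overlapping peaks. The upper tail differed more: 188 members, 10.6% (9.25 to 12.1%), were wider than 612 bp, against 3.19% of nearby peaks (2.70 to 3.76%) and 3.23% of overlapping peaks (2.64 to 3.94%). Widths over 1 kb occurred at 54 members, 3.05% (2.34 to 3.95%), against 0.357% and 0.105% in the other classes. The widest member, chr17:13381169-13383852, spanned 2684 bp at the lowest score, 11.

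Wide members had low scores, came in groups and lay closer to input regions. Their median score was 12 and only 5 of 188 reached 20, against a median of 14 and 341 of 1585 among the narrower members. Another member lay within 12500 bp of 62.2% of the wide members (55.1 to 68.9%), against 14.4% of the narrower ones (12.7 to 16.2%). Within 100 kb of an input region lay 47.9% of the wide members (40.8 to 55.0%), against 5.87% of the narrower ones (4.81 to 7.13%). Across members the Spearman correlation of score and width was -0.19, given as a description over 1773 peaks of 1 library.

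The same relation appeared when members were divided by their distance to input. Of the 183 members at 10 to 100 kb from input, 49.2% were wide (42.0 to 56.4%) and 57.9% had another member within 12500 bp (50.7 to 64.8%). Of the 398 members more than 10000 kb from input, 3.77% were wide (2.30 to 6.12%) and 10.6% had such a neighbour (7.90 to 13.96%). Nearby FOXA2 peaks at 10 to 100 kb from input, 83 in number, were wide in 14.5% (8.47 to 23.6%), which is below the interval of the remote sites at that distance. Beyond 10000 kb from input 2.60% of nearby peaks were wide (1.79 to 3.75%), and there the intervals of remote and nearby sites overlapped. At scores of 11 to 14 and more than 100 kb from input, 9.84% of remote sites were wide (8.03 to 12.01%), against 4.71% of nearby peaks (3.86 to 5.72%) and 6.36% of overlapping peaks (4.91 to 8.21%). At scores of 15 to 29 and the same distance from input the shares were 2% of remote sites (1.15 to 3.46%), 1.47% of nearby peaks (1.00 to 2.17%) and 2.39% of overlapping peaks (1.68 to 3.39%), with overlapping intervals. Away from input the larger share of wide remote sites was thus seen at scores of 11 to 14 and not at higher ones. Even at scores of 11 to 14 the intervals of remote and overlapping peaks overlapped, and only that of nearby peaks lay apart. The part of nearby input in the wide members was not tested.

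**Figure D3:**
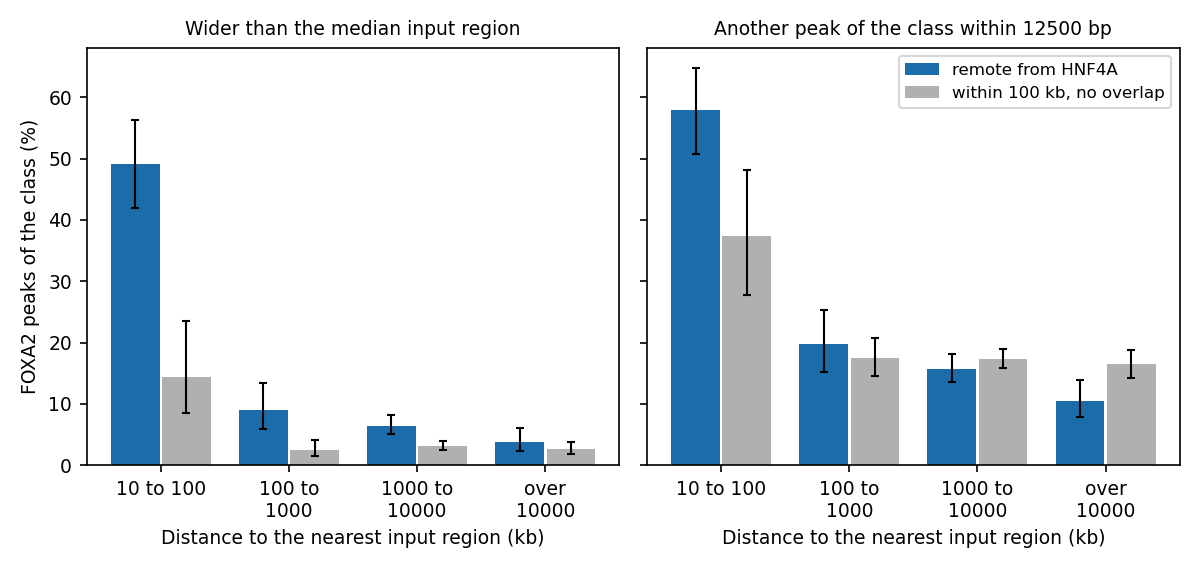
Share of FOXA2 peaks wider than the median input region (left) and share with another peak of the same class within 12500 bp (right), in percent, by distance to the nearest input region in kb, for remote sites (blue) and for peaks within 100 kb of HNF4A without overlap (grey); whiskers are 95% Wilson intervals. At 10 to 100 kb from input 49.2% of remote sites were wide, and beyond 10000 kb 3.77% were.

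Most remote sites stood alone. When members at most 12500 bp apart were joined, 1428 remained single, 200 formed 100 pairs, and 145 lay in 38 groups of 3 or more. Another member within that distance was thus found for 345 members, 19.5% (17.7 to 21.4%). The same share, counted within each class, was 17.5% for nearby peaks (16.4 to 18.7%) and 16.9% for overlapping peaks (15.6 to 18.3%). These intervals overlapped. With wide or low peaks left out, remote sites had the lowest share. A share counted within a class also depends on how dense the class is. Remote sequence held 1.09 FOXA2 peaks per Mb, against 7.51 within 100 kb of HNF4A. The lower shares below therefore cannot be told apart from lower density. Among peaks of at most 612 bp the share was 12.2% for remote sites (10.7 to 13.9%), 16.7% for nearby peaks (15.6 to 17.9%) and 16.7% for overlapping peaks (15.4 to 18.2%). At or above the median score of the list it was 5.79% for remote sites (4.34 to 7.68%), 10.4% for nearby peaks (9.15 to 11.7%) and 14.2% for overlapping peaks (12.7 to 15.8%). The share at remote sites was also lower beyond 10000 kb from input, at 10.6%, against 16.4% of nearby peaks (14.3 to 18.8%). At 1000 to 10000 kb from input the shares were 15.7% (13.6 to 18.2%) and 17.4% (15.9 to 18.9%), with overlapping intervals. Counting FOXA2 neighbours of any class, 20.1% of members (18.3 to 22.01%) had one within 12500 bp, against 27.9% of nearby peaks (26.6 to 29.3%) and 32.0% of overlapping peaks (30.3 to 33.7%). A remote site can have hardly any neighbour but another remote site or a peak beside input, so the choice of members lowers this share.

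Grouped and single members differed in kind. In groups of 3 or more the median score was 12, the highest score 20 and the median width 646 bp, and 53.1% of members were wide (45.0 to 61.0%). Of the single members 4.97% were wide (3.96 to 6.23%), with a median score of 14 and a highest score of 114. Pairs stood between them, with a median score of 13 and 20% wide members (15.0 to 26.1%). No member of a group of 3 or more scored above the 90th percentile of the list, 0 of 145, which allows a share of up to 2.07% if 3 counts are taken as the limit of a count of 0, whereas 77 of 1428 single members did, 5.39% (4.34 to 6.69%). Of the 38 groups, 16 came within 100 kb of an input region.

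The largest group lay on chromosome 13 at 12903970 to 12967342. It held 11 members over 63.4 kb, with scores of 11 or 12 and widths of 425 to 781 bp, and its nearest input region was 10.9 kb away. The second, on chromosome 5 at 95198447 to 95219215, held 7 members with scores of 11 to 18 over 20.8 kb and lay in the third of the gaps described above. The third, on chromosome 14 at 42326035 to 42335348, held 6 members with scores of 11 to 15 over 9.31 kb, in the second of those gaps. All 3 were at most 21.6 kb from input and consisted of low peaks, of which 4 of 11, 4 of 7 and 4 of 6 were wide.

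The fourth, on chromosome 4 at 41822259 to 41835268, held 5 members with scores of 11 to 15 and came within 10.2 kb of input. Its first member had another FOXA2 peak 1.43 kb away, left out for lying within 10 kb of input. Groups hold members only, so such peaks were not counted in them. Of the 14 groups of 4 members, the one with the highest summed score lay on chromosome 13 at 68046628 to 68053425, with scores of 11 to 19 and widths of 327 to 1284 bp. It differed from the 4 larger groups in its distance to input, which was 2206.5 kb.

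**Figure D4:**
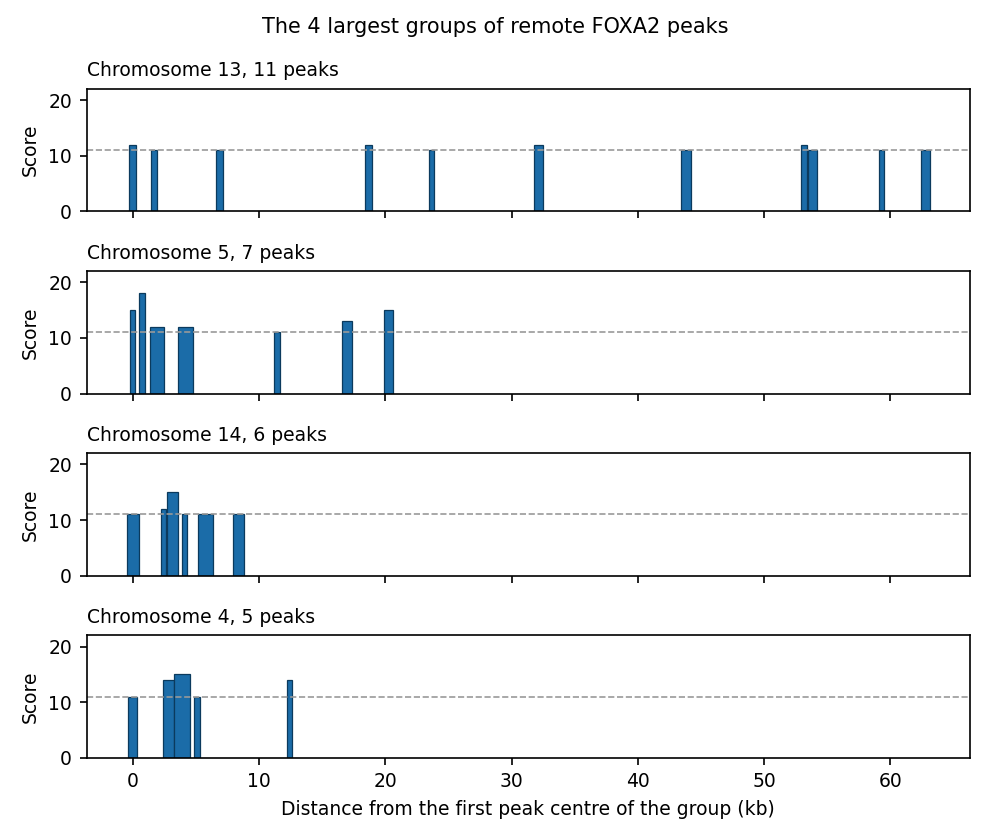
Peaks of the 4 largest groups of remote FOXA2 sites, drawn by distance from the first peak centre of each group in kb (horizontal axis) with the authors' score as height (vertical axis) and peak width to scale; the dashed line marks the lowest score of the list, 11. No peak in these groups scored above 18.

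Pairs of narrow, higher-scoring members also occurred and were named after their values were seen. The pair with the highest summed score lay on chromosome 14 at 63503043 to 63512121, with scores of 19 and 49, and was 6267.8 kb from input. On chromosome 1 at 181763775 to 181766872 scores were 26 and 31, and on chromosome 3 at 80512969 to 80514675 they were 18 and 39. On chromosome 2 at 102391393 to 102392546 they were 20 and 36 with centres 0.79 kb apart. These pairs had median widths of 344.5 to 381 bp, and the single members had a median width of 362.5 bp.

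Remote sites were found on every chromosome of the list, with unequal density. Chromosome 7 held the most, 148 members, which made up 28.6% of its FOXA2 peaks (24.8 to 32.6%). The highest share was that of X, where members made up 34.0% of 215 FOXA2 peaks (28.0 to 40.5%). On chromosome 19 they made up 11.4% (8.31 to 15.4%) and on chromosome 11 they made up 12.45% (9.93 to 15.5%). Per Mb of remote sequence, density was highest on chromosome 17 among autosomes, at 1.75 members (1.41 to 2.15), and lowest on chromosome 8, at 0.833 (0.643 to 1.06). With wide members left out these came to 1.34 (1.04 to 1.70) and 0.692 (0.520 to 0.903), and chromosome 9 then had the highest density, 1.43 (1.17 to 1.74). On chromosome 17, 23.3% of members were wide, against 0.990% on chromosome 9, so the leading autosome depended on the wide peaks.

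The X chromosome combined a large share with a low density. It held 73 members, 4.12% of all (3.29 to 5.15%), against 0.808% of nearby peaks (0.579 to 1.13%) and 1.23% of overlapping peaks (0.885 to 1.70%). Remote sequence made up 89.6% of X, where HNF4A had 132 peaks, and 61.5% of the autosomes together. Per Mb of that sequence X held 0.502 members (0.394 to 0.632), against 1.15 on autosomes (1.10 to 1.21). FOXA2 peaks within 100 kb of HNF4A were also sparser on X, at 4.11 per Mb (3.19 to 5.20) against 7.58 on autosomes. The lower density on X was thus not limited to remote sites. Beyond 1000 kb from HNF4A, however, the intervals of X and the autosomes overlapped, at 0.403 (0.272 to 0.575) and 0.387 (0.322 to 0.463) members per Mb. At 100 to 200 kb X held 0.752 and the autosomes 2.13 (1.98 to 2.29). On X 19.2% of members were wide, and the median score there was 12. The highest member on X was chrX:69293213-69293575, with a score of 54, 1520.5 kb from HNF4A. The 3 members on Y had scores of 12, 12 and 14, and 2 of them were wide.

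**Figure D5:**
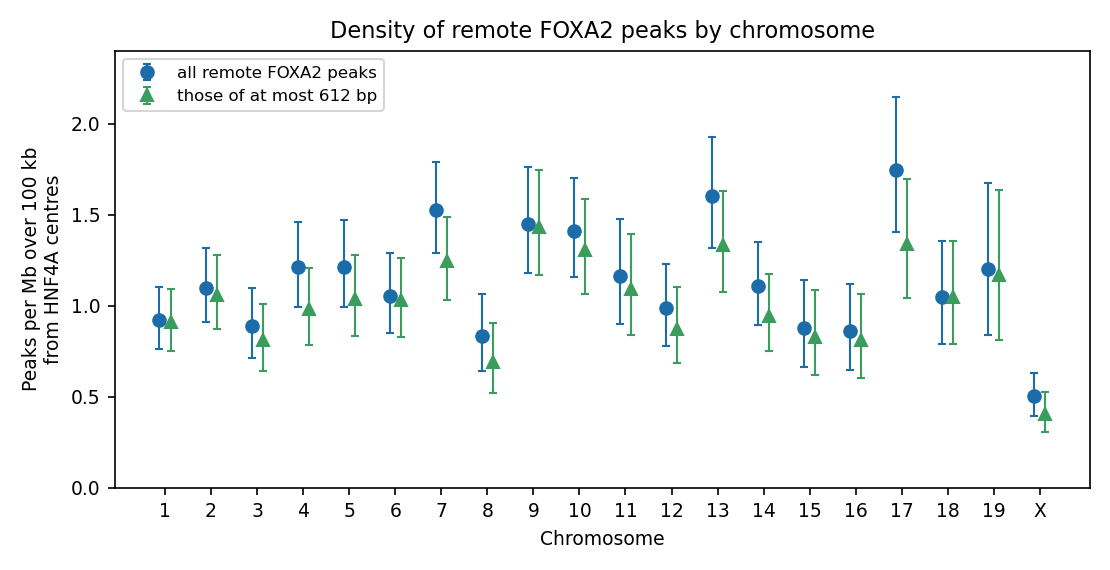
Remote FOXA2 sites per Mb of sequence more than 100 kb from HNF4A centres (vertical axis) on the autosomes and X (horizontal axis), for all remote sites (circles) and for those of at most 612 bp (triangles); whiskers are exact 95% Poisson intervals. All remote sites ranged from 0.833 per Mb on chromosome 8 to 1.75 on chromosome 17 among autosomes, with 0.502 on X.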

How the data were processed

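The authors deposited 1 headerless list of regions for each of the 3 libraries, with chromosome, start, end and a whole-number score that the deposited files do not define. Coordinates are on mm9, as the submitters' processing notes state. The sources used here name no aligner, peak caller or threshold, and sequencing depth is unknown. Scores were compared only within each list and not between the lists. Chromosome prefixes and the closing hash line of the FOXA2 list were removed, and mitochondrial regions were left out. Centres are midpoints; distances to input run from edge to edge, and overlap means at least 1 bp. Shares carry 95% Wilson intervals and densities exact Poisson intervals, which are too narrow where peaks cluster. Distances to HNF4A centres, the split into remote and nearby peaks and the joining into groups were tested on simulated data. Overlap with HNF4A peaks and distance to input were not part of that test. The named sites were the 10 highest members, 5 groups, 3 gaps, the farthest member and those beside the limits; others were chosen after their values were seen. The members, lists and comparisons were chosen with earlier results of these data known, and the width limit after seeing the widths. Intervals came from scipy 1.17.1, under Python 3.11.15 with pandas 2.3.3 and numpy 2.4.6, and figures from matplotlib 3.10.9.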

Additional observations from a re-analysis of the deposited data

How the results depend on the processing

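Of 51 values under other settings, 24 stayed within the interval of the reported value or within 1.5 times the reported count, and 27 did not. The cause of these moves was not tested beyond what each setting fixes by its construction. The number of remote sites was 2682 at 50 kb and 997 at 200 kb from HNF4A, 760 at or above the FOXA2 median score and 3051 when only HNF4A peaks at or above their median score counted. The median score was 15 above the lowest score and 19 at or above the median. The median width was 363 bp beyond 100 kb from input, 384 bp with no condition on input, 375 bp at 200 kb from HNF4A, 356 bp at or above the median score, 365 bp with the stronger HNF4A peaks and 361 bp without wide peaks, a setting added after seeing the data. The share on X and Y, reported as 4.29%, was 3.33% beyond 100 kb from input, 6.62% with no condition on input, 3.21% at 50 kb, 6.72% at 200 kb, 2.24% at or above the median score and 3.08% with the stronger HNF4A peaks. The share with another member close by was 15.0% beyond 100 kb from input, 30.9% with no condition on input, 17.0% at 50 kb, 22.3% at 200 kb, 11.9% above the lowest score, 5.79% at or above the median score and 12.2% without wide peaks. It was 13.4% when joined at 5 kb and 25.3% at 25 kb. No paired analysis was possible because each group has 1 library.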

Other observations

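Some windows were dense in remote sites but held few wide peaks. Among 5 Mb windows, chromosome 9 from 40 to 45 Mb held 11 members, none of them wide, with a median score of 18 and a highest score of 41. Chromosome 6 from 55 to 60 Mb also held 11, 1 of them wide, with a median score of 19. Chromosome 16 from 90 to 95 Mb held 12, 1 of them wide, with a median score of 13.5 and a highest score of 77, and 8 of its 12 members scored 11 to 14. None of the members in these 3 windows lay within 100 kb of input. The densest window, chromosome 17 from 5 to 10 Mb, held 24 members, of which 14 were wide, with a median score of 12. These windows were chosen after their values were seen.

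The converse class was made of HNF4A peaks more than 100 kb from every FOXA2 centre and more than 10 kb from input. As with the remote FOXA2 sites, its median score was below that of peaks of its own list closer to the other factor. This class differed from the remote FOXA2 sites in other values. It held 2126 of 11700 nuclear HNF4A peaks, 18.2% (17.5 to 18.9%). Its median score was 22, against 23 for HNF4A peaks closer to FOXA2, and its median width was 426 bp, against 430 bp. Peaks over 612 bp made up 12.1% of it (10.8 to 13.5%), against 13.9% of HNF4A peaks closer to FOXA2 (13.2 to 14.6%), with overlapping intervals, while among FOXA2 peaks the remote class had the larger share of wide peaks. On X and Y lay 1.98% of these HNF4A peaks (1.46 to 2.66%), against 4.29% of the remote FOXA2 sites. The whole lists differed in the same direction. Of all FOXA2 peaks 2.60% lay on X and Y, while X held 132 and Y 10 of the 11700 HNF4A peaks. Another peak of the class within 12500 bp was found for 26.8% of them (24.9 to 28.7%), against 19.5% of the remote FOXA2 sites. This share was not computed for the whole HNF4A list, which is longer than the FOXA2 list. The contrast therefore cannot be told apart from one between the lists. The difference between the factors was not tested.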
